A study of Homo sapiens with 12 samples.

Results

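The genes described here are 10 components of purinergic signalling: the ATP-gated channels P2RX4, P2RX5 and P2RX7, the nucleotide receptors P2RY2 and P2RY11, the ATP release channel PANX1, the ectonucleotidases ENTPD1 and NT5E, and the adenosine receptors ADORA1 and ADORA2B. They are 10 of the 58174 genes in each deposited table, matched by gene name. They were chosen with their levels in XRN2 siRNA cells against control siRNA and mock cells of each line in view, so those comparisons are given for them as descriptions with no test. RNA was sequenced from LN229 and U251, established human glioblastoma lines, 72 hours after reverse transfection. In each line the groups were XRN2 siRNA, control siRNA (siNT_OTP in the labels) and mock, with 2 libraries per group and 12 libraries in all. LN229 and U251 cells were kept in different media with different serum content. The labels do not say whether the 2 libraries of a group came from separate cultures, and the spread behind every p-value here may therefore be technical. XRN2 is a nuclear exoribonuclease that degrades RNA from its 5′ end, and the comparisons ask which transcripts differ when it is depleted.

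Cells release ATP through channels such as pannexins and connexins. Outside the cell, ATP opens P2X channels and activates G protein-coupled P2Y receptors, while ectonucleotidases on the cell surface cut it stepwise to AMP and adenosine, which acts on its own G protein-coupled receptors. Glioblastoma cells are known for their high surface level of CD73, the enzyme encoded by NT5E, and for responses to P2RX7 activation.

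P2RX7 and NT5E are the members whose levels differed most between XRN2 siRNA and control cells, and their promoter windows are shown for that reason. Each runs from 250 bases before to 50 bases after the RefSeq gene start in GRCh38.p14, plus strand, at chr12:121132626-121132925 for P2RX7 and chr6:85449833-85450132 for NT5E. The gene starts in the deposited data differ from RefSeq. NT5E starts there at base 85449584, so its window lies within the gene as counted. P2RX7 starts there at base 121132819, inside its window. Capitals mark matches to the GC box GGGCGG and to the cyclic AMP response element core TGACG, both searched on either strand; no match overlaps another.
P2RX7: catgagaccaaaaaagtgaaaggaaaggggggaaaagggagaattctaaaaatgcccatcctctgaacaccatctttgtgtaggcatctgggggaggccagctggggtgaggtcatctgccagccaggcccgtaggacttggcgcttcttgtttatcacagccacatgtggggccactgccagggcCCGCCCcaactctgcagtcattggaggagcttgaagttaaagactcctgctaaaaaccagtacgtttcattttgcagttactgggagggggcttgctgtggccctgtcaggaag
NT5E: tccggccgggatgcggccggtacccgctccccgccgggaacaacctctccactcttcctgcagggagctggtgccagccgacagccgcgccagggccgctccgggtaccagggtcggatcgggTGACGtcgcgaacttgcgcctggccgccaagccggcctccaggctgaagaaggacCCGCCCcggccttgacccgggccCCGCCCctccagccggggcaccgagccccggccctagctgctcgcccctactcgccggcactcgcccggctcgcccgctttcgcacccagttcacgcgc
The P2RX7 window had a GC content of 53.3% and held 1 GC box and no TGACG. The NT5E window had a GC content of 75% and held 2 GC boxes and 1 TGACG. Over 35116 RefSeq promoter windows of the same length, the median GC content was 58.7%, and 45.0% held GGGCGG and 24.6% held TGACG on either strand. A match describes letters in the window and is not a measured binding site.

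Libraries held 4846768 to 7469052 exon reads. XRN2 itself was at 33.5 and 25.6 CPM (counts-per-million, scaled by trimmed mean of M-values) in LN229 XRN2 siRNA libraries, against 201 and 242 CPM with control siRNA and 229 and 235 CPM in mock, so 13.3% of the control siRNA level was left. In U251, XRN2 was at 31.0 and 26.1 CPM with XRN2 siRNA, against 144 and 134 CPM with control siRNA and 138 and 143 CPM in mock, with 20.5% of the control siRNA level left. Of 8 astrocyte and glioma markers, 7 averaged above 1 CPM in each line; SLC1A3 did not in LN229 and OLIG2 did not in U251. The list's summed level was 3220 to 6260 CPM in LN229 and 9611 to 17722 CPM in U251. VIM made up much of it in LN229, with 3114 CPM in mock. GFAP averaged only 4.15 CPM in LN229 mock, against 3588 CPM in U251 mock. Microglia and blood markers summed to 2.03 to 5.05 CPM in LN229 and 1.75 to 3.52 CPM in U251. Of the 7, 1 averaged above 1 CPM in each line, TMEM119 in LN229 and CSF1R in U251. Endothelial markers summed to 3.42 to 9.11 CPM in LN229 and 13.8 to 21.4 CPM in U251. Of these 5, PECAM1 and VWF averaged above 1 CPM in LN229, and VWF, CDH5 and KDR did in U251. The replicates of LN229 control siRNA and of U251 mock differed most, with chi-square statistics per gene of 17.8 and 24.7, against 1.70 to 7.14 in the other groups. In LN229 control siRNA the replicate difference followed exon length across genes (Spearman rho = -0.60, against -0.033 to 0.12 in the other groups). Some results, but not every one that uses them, are therefore also given without LN229 control siRNA replicate 1 or U251 mock replicate 2.

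Among the P2X channels, P2RX7, known for opening a large pore at high ATP and for activating the inflammasome, stood apart in LN229. It lies on chromosome 12 (ENSG00000089041, bases 121132819 to 121188032, plus strand, GRCh38), and all of its 1976 exon reads were unique. In LN229 its level was 77.2 and 84.0 CPM with XRN2 siRNA, against 21.6 and 34.6 CPM with control siRNA and 28.9 and 35.0 CPM in mock. Both XRN2 siRNA libraries lay above all 4 control libraries, whose ranges overlapped each other. The fitted log2 fold change was 1.51 (SE 0.20, 2.85-fold) over control siRNA and 1.33 (SE 0.20, 2.52-fold) over mock, while control siRNA against mock was -0.18 (SE 0.21). Without LN229 control siRNA replicate 1, the lower of the control siRNA values, it was 1.25 over control siRNA. Bulk RNA cannot tell more cells with the transcript from more transcript per cell.

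In U251, P2RX7 had few reads per library, though it passed the filter on low counts. It had 4.90 and 3.54 CPM with XRN2 siRNA, against 4.61 and 4.40 CPM with control siRNA and 4.01 and 4.35 CPM in mock, from 21 to 33 exon reads per library. The groups overlapped. The log2 fold change was -0.085 (SE 0.32) against control siRNA and 0.020 (SE 0.33) against mock. The response to XRN2 siRNA over control siRNA in LN229 minus that in U251 was 1.60 (SE 0.38) on the log2 scale, a description since the gene was chosen on these values.

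Reads of P2RX7 across exon junctions also lay above all controls in LN229. They stood at 23.0 and 27.4 RPM (reads-per-million, here of all gene reads) with XRN2 siRNA, against 3.51 and 11.4 RPM with control siRNA and 8.13 and 10.8 RPM in mock. Intron reads of P2RX7 were fewer, 44 with XRN2 siRNA, against 26 with control siRNA and 25 in mock over the 2 libraries of each group. They averaged 3.41 ± 0.249 RPM with XRN2 siRNA, against 2.28 ± 0.192 RPM with control siRNA and 1.70 ± 0.0108 RPM in mock (SD, n = 2 each). These classes of read come from the same libraries as the exon reads and are no independent sample.

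P2RX4, the P2X channel most widely expressed across tissues, starts 21824 bases beyond the end of P2RX7 on the same strand of chromosome 12. It was at 11.1 and 15.8 CPM in LN229 with XRN2 siRNA, against 12.1 and 12.4 CPM with control siRNA and 9.27 and 13.7 CPM in mock. U251 cells had 13.7 and 13.99 CPM with XRN2 siRNA, against 14.5 and 13.7 CPM with control siRNA and 12.4 and 14.7 CPM in mock. The groups overlapped in both lines. Its log2 fold changes for XRN2 siRNA were 0.12 in LN229 and -0.029 in U251 against control siRNA, and 0.20 in LN229 and 0.026 in U251 against mock, each with an SE of 0.23.

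P2RX5, a channel with slow and small currents, had 4 exon reads in all 12 libraries. 1 of these was in U251 XRN2 siRNA replicate 1, 1 in LN229 control siRNA replicate 2 and 1 in each U251 control siRNA library, and the other 8 libraries had none. P2RX5 did not pass the filter on low counts. A count of 0 allows up to 3 reads, or 0.402 to 0.619 CPM across the libraries before scaling, for counting error only, so a difference in P2RX5 was not detectable at this depth. The readthrough gene P2RX5-TAX1BP3, which covers P2RX5 on the same strand, had 106 exon reads in all, and TAX1BP3 downstream had 7379.

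**Figure D1:**
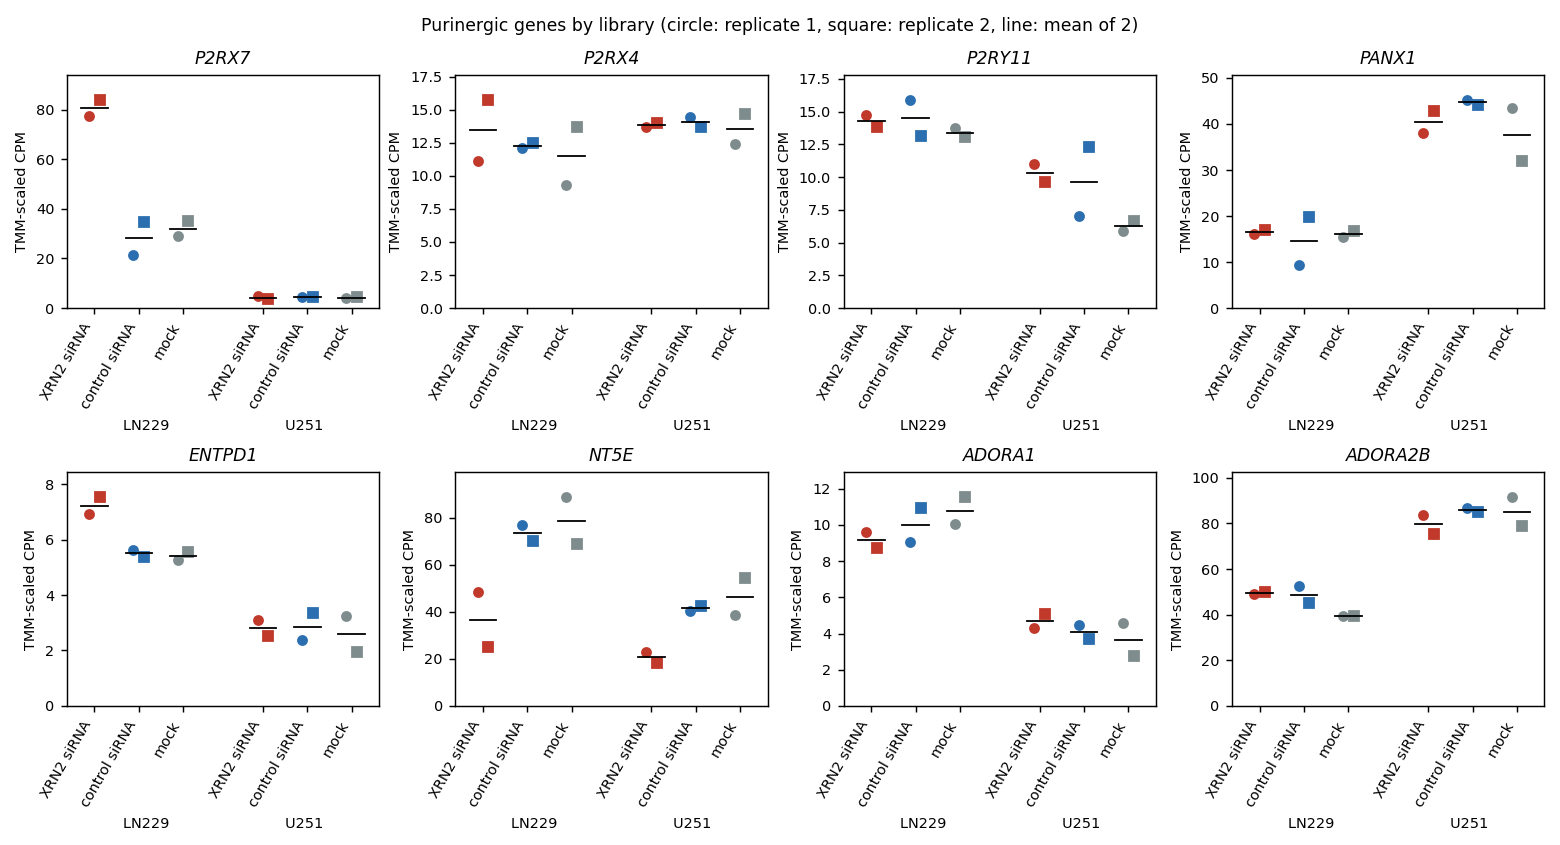
Level of the 8 members that passed the filter, as TMM-scaled CPM (vertical axis, from 0) in each library of the 6 groups (horizontal axis), with circles for replicate 1, squares for replicate 2 and lines for the mean of 2. P2RX7 with XRN2 siRNA sits at 77.2 and 84.0 CPM in LN229, above its controls, and NT5E with XRN2 siRNA lies below its controls in both lines.

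The P2Y receptors gave little to measure. P2RY2, a receptor for ATP and UTP, had 3 exon reads in all, 2 and 1 in the U251 control siRNA libraries and none in the other 10, and did not pass the filter. P2RY11, an ATP receptor coupled to both phospholipase C and adenylyl cyclase, was at 14.8 and 13.8 CPM in LN229 with XRN2 siRNA, against 15.9 and 13.1 CPM with control siRNA and 13.7 and 13.05 CPM in mock. Its U251 values were 10.98 and 9.61 CPM with XRN2 siRNA, against 6.995 and 12.3 CPM with control siRNA and 5.92 and 6.61 CPM in mock. The XRN2 siRNA libraries overlapped those with control siRNA in both lines. They lay above both mock libraries in each line.

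P2RY11 values are uncertain as a measure of that receptor. Of its 851 exon reads, 301 (35.4%) were unique and 2 crossed an exon junction. On chromosome 19 it overlaps PPAN and the readthrough gene PPAN-P2RY11 on the same strand and EIF3G on the opposite strand, and the kit is known to keep no strand. PPAN-P2RY11 was at 3.93 and 5.78 CPM in LN229 with XRN2 siRNA, against 0 and 2.35 CPM with control siRNA and 0 in both mock libraries. PPAN-P2RY11 in U251 was at 2.97 and 8.77 CPM with XRN2 siRNA, against 0 and 1.41 CPM with control siRNA and 5.72 and 1.13 CPM in mock. None of the 193 exon reads of PPAN-P2RY11 was unique, and how they were divided between the genes was not tested. The log2 fold change of P2RY11 in LN229 was -0.015 (SE 0.24) against control siRNA and 0.098 (SE 0.23) against mock. In U251 the P2RY11 log2 fold change was 0.10 (SE 0.25) against control siRNA and 0.71 (SE 0.27) against mock, where control siRNA against mock was itself 0.61 (SE 0.27).

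PANX1, which encodes a channel that releases ATP, was at 16.1 and 17.0 CPM in LN229 with XRN2 siRNA, against 9.27 and 19.8 CPM with control siRNA and 15.5 and 16.7 CPM in mock. The control siRNA libraries were the lowest and the highest of the 6. Its level in U251 was 38.1 and 42.8 CPM with XRN2 siRNA, against 45.3 and 44.1 CPM with control siRNA and 43.5 and 31.9 CPM in mock, so the XRN2 siRNA libraries lay below those with control siRNA and overlapped mock. The log2 fold change was 0.16 (SE 0.27) against control siRNA and 0.035 (SE 0.27) against mock in LN229, and -0.15 (SE 0.24) and 0.11 (SE 0.24) in U251. Against control siRNA in LN229 it ranged from -0.23 to 0.83 over 13 settings, which include leaving out each control siRNA library.

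Of the ectonucleotidases, NT5E, the enzyme CD73 that makes adenosine from AMP, was lower with XRN2 siRNA in both lines. It lies on chromosome 6 (ENSG00000135318, bases 85449584 to 85495791, plus strand, GRCh38), and all of its 3695 exon reads were unique. In LN229 it was at 48.4 and 24.9 CPM with XRN2 siRNA, against 76.7 and 70.1 CPM with control siRNA and 88.7 and 68.8 CPM in mock. NT5E in U251 was at 22.8 and 18.4 CPM with XRN2 siRNA, against 40.5 and 42.6 CPM with control siRNA and 38.5 and 54.5 CPM in mock. In each line both XRN2 siRNA libraries lay below all 4 control libraries, and in LN229 the 2 XRN2 siRNA libraries differed more from each other than in U251.

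NT5E had a log2 fold change of -0.99 (SE 0.26) against control siRNA and -1.09 (SE 0.26) against mock in LN229. In U251 it was -1.01 (SE 0.28) against control siRNA and -1.17 (SE 0.28) against mock. The response in LN229 minus that in U251 was 0.017 (SE 0.37). Its sign was the same in all 13 settings of each comparison, with values of -1.56 to -0.60 against control siRNA in LN229 and -1.18 to -0.86 in U251. The comparisons against control siRNA and against mock share their XRN2 siRNA libraries.

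NT5E reads across exon junctions averaged 13.4 ± 4.49 RPM in LN229 with XRN2 siRNA, against 25.4 ± 2.82 with control siRNA and 27.8 ± 4.26 in mock (SD, n = 2 each). In U251 they averaged 7.22 ± 1.93 with XRN2 siRNA, against 13.6 ± 1.72 with control siRNA and 14.9 ± 3.11 in mock. Its intron reads in LN229 averaged 3.14 ± 1.65 RPM with XRN2 siRNA, against 6.90 ± 0.941 with control siRNA and 7.47 ± 1.80 in mock. In U251 they averaged 1.24 ± 0.116 with XRN2 siRNA, against 1.91 ± 0.787 with control siRNA and 1.61 ± 0.657 in mock, from 18, 27 and 22 reads. Both U251 XRN2 siRNA libraries, at 1.15 and 1.32 RPM of NT5E intron reads, lay below both control siRNA libraries, at 2.47 and 1.36 RPM, and overlapped mock, at 1.15 and 2.08 RPM.

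**Figure D2:**
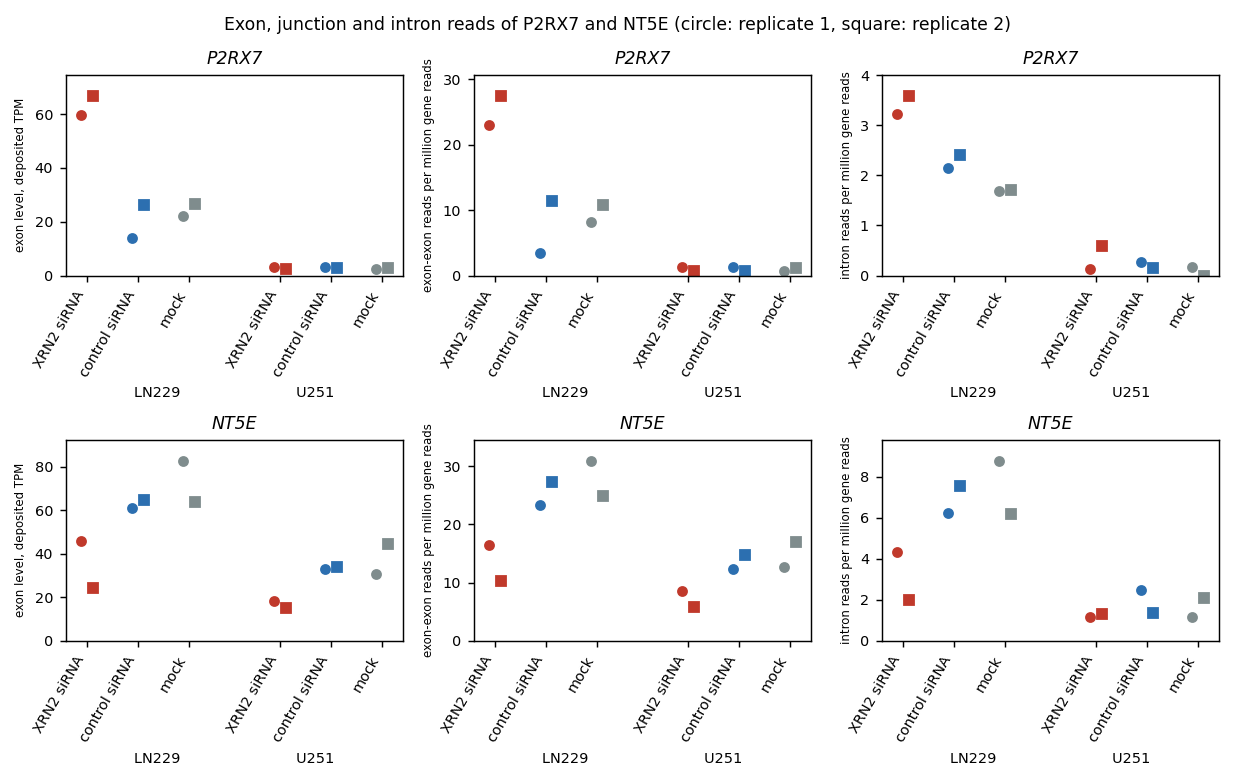
Exon level as deposited TPM, exon-exon reads and intron reads as RPM of gene reads (vertical axes, from 0) of P2RX7 (upper row) and NT5E (lower row) in each library of the 6 groups. P2RX7 exon-exon reads in LN229 XRN2 siRNA libraries stand at 23.0 and 27.4, above all controls, and the NT5E intron reads of U251 XRN2 siRNA libraries, at 1.15 and 1.32, lie below control siRNA and overlap mock.

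ENTPD1, the enzyme CD39 that removes phosphates from ATP and ADP, was at 6.91 and 7.53 CPM in LN229 with XRN2 siRNA, against 5.64 and 5.38 CPM with control siRNA and 5.27 and 5.57 CPM in mock. The XRN2 siRNA libraries lay above the 4 controls. The U251 values were 3.12 and 2.53 CPM with XRN2 siRNA, against 2.38 and 3.34 CPM with control siRNA and 3.24 and 1.93 CPM in mock, and the groups overlapped. In LN229 its log2 fold change was 0.39 (SE 0.29) against control siRNA and 0.41 (SE 0.28) against mock, and in U251 it was -0.0077 (SE 0.35) and 0.15 (SE 0.35). Only 7 of the 330 exon reads of ENTPD1 (2.12%) were unique and 5 crossed an exon junction. ENTPD1 overlaps ENTPD1-AS1 on the opposite strand and AL365273.1 and AL365273.2 on the same strand, so its values may hold reads of other genes and it did not pass the filter on unique reads. ENTPD1-AS1 was at 4.61 and 4.73 CPM in LN229 with XRN2 siRNA, against 2.22 and 5.38 CPM with control siRNA and 5.11 and 6.21 CPM in mock.

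ADORA1, an adenosine receptor that lowers cyclic AMP, was at 9.62 and 8.75 CPM in LN229 with XRN2 siRNA, against 9.06 and 10.9 CPM with control siRNA and 10.1 and 11.5 CPM in mock. The U251 libraries had 4.30 and 5.06 CPM with XRN2 siRNA, against 4.45 and 3.69 CPM with control siRNA and 4.58 and 2.74 CPM in mock. The XRN2 siRNA libraries overlapped those with control siRNA in both lines and lay below both mock libraries in LN229. The log2 fold changes were -0.12 (SE 0.25) against control siRNA and -0.23 (SE 0.24) against mock in LN229, and 0.19 (SE 0.30) and 0.37 (SE 0.30) in U251.

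ADORA2B, a low-affinity adenosine receptor that raises cyclic AMP, was at 49.1 and 49.7 CPM in LN229 with XRN2 siRNA, against 52.4 and 45.1 CPM with control siRNA and 39.5 CPM in both mock libraries. ADORA2B in U251 was at 83.8 and 75.5 CPM with XRN2 siRNA, against 86.6 and 85.1 CPM with control siRNA and 91.4 and 79.0 CPM in mock. The XRN2 siRNA libraries lay above both mock libraries and within the range with control siRNA in LN229, and in U251 they lay below both control siRNA libraries and overlapped mock. In LN229 the log2 fold change was 0.021 (SE 0.14) against control siRNA and 0.32 (SE 0.14) against mock, where control siRNA against mock was 0.30. In U251 it was -0.11 (SE 0.13) against control siRNA and -0.095 (SE 0.13) against mock.

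**Figure D3:**
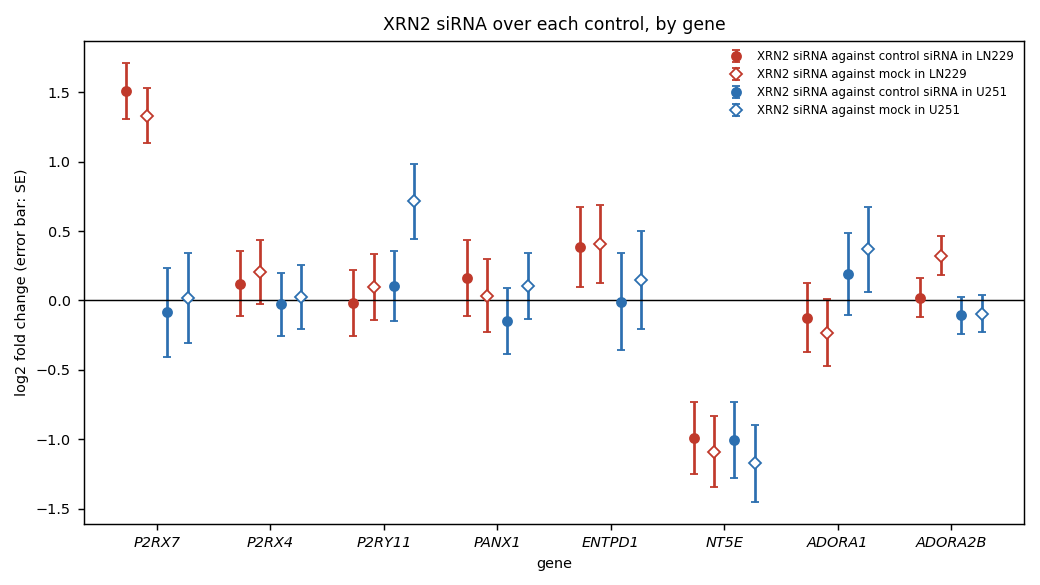
Fitted log2 fold change of XRN2 siRNA over control siRNA (circles) and over mock (diamonds) for the 8 members that passed the filter, in LN229 (red) and U251 (blue), with bars of 1 SE. P2RX7 stands at 1.51 and 1.33 in LN229 and near 0 in U251, and NT5E between -1.17 and -0.99 in all 4.

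Set against all 14232 genes tested by edgeR's quasi-likelihood test with Benjamini-Hochberg adjustment at 0.05, 450 (3.16%) passed for XRN2 siRNA against control siRNA in LN229 and 182 (1.28%) against mock. P2RX7 was the 1 member of 8 among them in both; the members were chosen on these comparisons, so nothing is read from that count. In U251, 1 gene (0.00703%) passed against control siRNA, XRN2 itself, and 7 (0.0492%) passed against mock, XRN2 included. No member passed in U251. Both XRN2 siRNA libraries lay above all 4 controls in LN229 for 2 of the 8 members, P2RX7 and ENTPD1, where 16.0% of all genes did, and below them for 1, NT5E, where 16.8% did. In U251 none of the 8 lay above, where 13.8% of all genes did, and NT5E lay below, where 10.5% did. NT5E lay below in both lines, as did 4.38% of all genes. The count of 450 moved to 67 and 3309 without LN229 control siRNA replicates 1 and 2, and to 850 and 1 without LN229 XRN2 siRNA replicates 1 and 2.

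Per exon length, ADORA2B had the highest level of the 10 in every group, with 124 ± 3.47 TPM (transcripts-per-million, as deposited) in LN229 with XRN2 siRNA, against 109 ± 0.352 TPM with control siRNA and 95.7 ± 0.0788 TPM in mock (SD, n = 2 each). Deposited TPM carries no TMM scaling, so these values are not read as a difference between groups. The TMM-scaled ADORA2B means were 49.4 CPM with XRN2 siRNA, against 48.7 CPM with control siRNA and 39.5 CPM in mock. In LN229, P2RX7 had rank 2 of 10 with XRN2 siRNA, at 63.2 ± 4.93 TPM, and rank 5 in control siRNA and mock, at 20.1 ± 8.52 and 24.2 ± 3.19 TPM. NT5E had rank 3 with XRN2 siRNA, at 34.9 ± 15.3 TPM, and rank 2 in control siRNA and mock, at 62.9 ± 2.46 and 73.0 ± 13.2 TPM. In LN229 mock, P2RY11, PANX1 and P2RX7 lay at 24.5 ± 0.944, 24.5 ± 1.27 and 24.2 ± 3.19 TPM and did not differ beyond their spread. In U251 mock the order was ADORA2B at 180 ± 15.6, PANX1 at 49.9 ± 10.0 and NT5E at 37.7 ± 9.74 TPM, with PANX1 and NT5E overlapping in spread, then P2RY11 at 10.0 ± 0.948, P2RX4 at 6.09 ± 0.820, ADORA1 at 3.20 ± 1.09, P2RX7 at 2.77 ± 0.207 and ENTPD1 at 1.36 ± 0.465 TPM. ADORA1 and P2RX7 did not differ beyond their spread there. The places of P2RY11 and ENTPD1 are uncertain, since 35.4% and 2.12% of their exon reads were unique.

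The difference between the lines was tested in mock cells, a comparison that the choice by response to XRN2 siRNA did not use. The members were still chosen with earlier results of these data known, so the p-values may not be free of that choice. Cell line and culture medium cannot be told apart in this comparison. P2RX7 was higher in LN229 mock than in U251 mock by 2.93 on the log2 scale (SE 0.26, edgeR quasi-likelihood test, adjusted p = 8.84e-07), with 28.9 and 35.0 CPM in LN229, against 4.01 and 4.35 CPM in U251. ADORA1 was higher by 1.58 (SE 0.28, edgeR adjusted p = 0.000347) and P2RY11 by 1.09 (SE 0.26, edgeR adjusted p = 0.00319). ENTPD1 was higher by 1.08 (SE 0.32, edgeR adjusted p = 0.0123) and NT5E by 0.75 (SE 0.26, edgeR adjusted p = 0.0243). The calls of P2RY11 and ENTPD1 may hold reads of overlapping genes, since 35.4% and 2.12% of their exon reads were unique. PANX1 was lower by 1.22 (log2 fold change -1.22, SE 0.25, edgeR adjusted p = 0.00127) and ADORA2B by 1.11 (log2 fold change -1.11, SE 0.14, edgeR adjusted p = 2.05e-05). P2RX4 was at -0.23 (SE 0.23, edgeR adjusted p = 0.418), so the data allow no call.

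For these 7 of 8 members with a call, 55.0% of all genes tested had one, 28.0% higher and 27.0% lower in LN229, and 5 of the 7 were higher. NT5E lost its call without LN229 mock replicate 1 (log2 fold change 0.56, edgeR adjusted p = 0.166) and without U251 mock replicate 1 (0.53, edgeR adjusted p = 0.160). P2RY11 lost it when control siRNA libraries stood in for mock (0.59, edgeR adjusted p = 0.0599), and ENTPD1 kept it in 10 of 14 settings. ENTPD1 lost it without U251 mock replicate 2 (0.74, edgeR adjusted p = 0.112), without both libraries that stand apart (0.73, edgeR adjusted p = 0.112), without LN229 mock replicate 2 (1.04, edgeR adjusted p = 0.0611) and with DESeq2 (1.07, DESeq2 adjusted p = 0.0650).

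**Figure D4:**
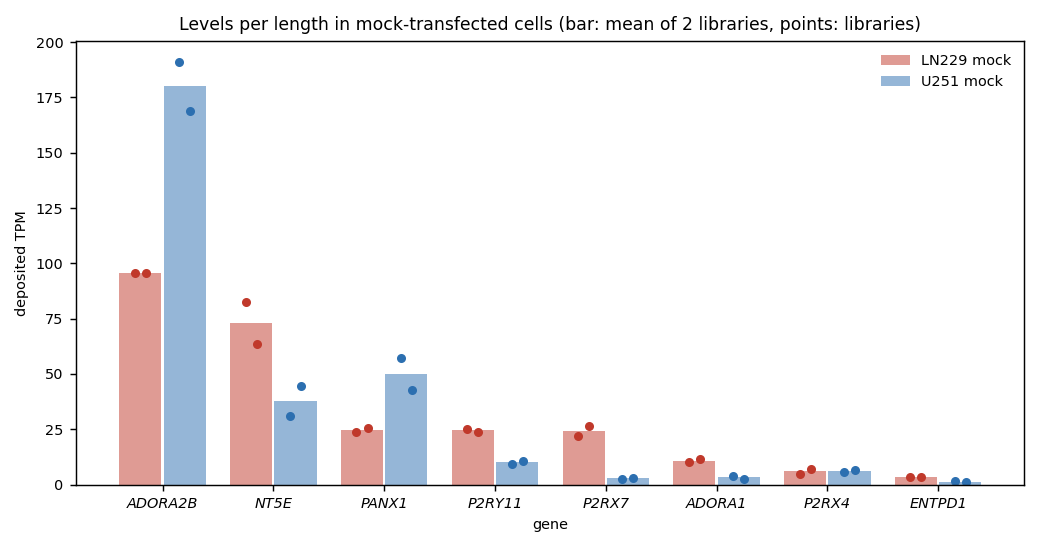
Level per length of the 8 members that passed the filter in LN229 mock (red, left) and U251 mock (blue, right), as deposited TPM (vertical axis, from 0), with bars for the mean of 2 libraries and points for the libraries. ADORA2B stands at 95.7 TPM in LN229 and 180 TPM in U251, and P2RX7 at 24.2 TPM in LN229 and 2.77 TPM in U251.

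The other genes of the pathway, 56 in 5 lists, were tested in the same fit, where 27 passed the filter and 4 had no read. They cover further nucleotide and adenosine receptors, ectoenzymes, release channels, adenosine uptake and metabolism, and inflammasome genes downstream of P2RX7. These lists too were chosen with earlier results of these data known, so their p-values may not be free of that choice. In LN229, 1 of the 27 was called higher against control siRNA and none lower, with a median log2 fold change of -0.059 over the 27. Of all genes tested, 3.16% were called there in either direction, so nothing is read from that count. PANX2, a pannexin found mainly in the nervous system, was at 10.2 and 14.7 CPM with XRN2 siRNA, against 6.04 and 4.04 CPM with control siRNA and 5.75 and 6.59 CPM in mock. PANX2 rose by 1.30 on the log2 scale against control siRNA (SE 0.26, edgeR adjusted p = 0.0249), and was at 0.99 (SE 0.24) against mock, with an edgeR adjusted p of 0.0643. In U251 it was at 0.28 (SE 0.20) against control siRNA, and the difference of the responses between lines was 1.02 (SE 0.33, edgeR adjusted p = 0.699). The XRN2 siRNA libraries lay above all 4 controls for PANX2 in each line. Of all genes, 16.0% did so in LN229 and 13.8% in U251.

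Against mock in LN229, 1 of the 27 pathway genes was called lower and none higher, where 1.28% of all genes were called in either direction. This was NEK7, a kinase that binds NLRP3 in the inflammasome. It fell by 1.13 on the log2 scale (SE 0.23, edgeR adjusted p = 0.0373), with 51.2 and 27.5 CPM with XRN2 siRNA, against 95.4 and 78.0 CPM in mock and 62.2 and 83.1 CPM with control siRNA. Against control siRNA NEK7 was at -0.88 (SE 0.23, edgeR adjusted p = 0.0585). In U251 NEK7 was at -0.30 (SE 0.24) against control siRNA and -0.32 (SE 0.24) against mock, with no call. Its XRN2 siRNA libraries lay below all 4 controls in both lines, as did those of 4.38% of all genes. In U251 no pathway gene passed against control siRNA by edgeR's quasi-likelihood test. There 1 of 27 pathway genes and 552 of all 14232 genes had an unadjusted p under 0.05. No pathway gene passed against mock either, where 6 of 27 and 1525 of all 14232 had one. DESeq2 called 0 in both. With only the compared groups 2 were called against control siRNA, and without a filter 1 was called against mock. PANX2 kept its call against control siRNA in 10 of 13 settings and NEK7 its call against mock in 9 of 13. Both calls were lost without LN229 XRN2 siRNA replicate 2, with log2 fold changes of 1.03 for PANX2 and -0.76 for NEK7. With only the compared groups in the fit both were lost while the log2 fold changes stayed near those above, at 1.32 for PANX2 and -1.10 for NEK7. PANX2 also lost its call without LN229 control siRNA replicate 1, at 1.64, and NEK7 without LN229 mock replicates 1 and 2, at -0.98 and -1.27.

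Between the lines in mock, 8 of the 27 were called higher in LN229, where 28.0% of all genes were, and 13 lower, where 27.0% of all genes were. The median log2 fold change was -0.40, against 0.031 over all genes. P2RY1, ENPP2, BST1, SLC29A2, AMPD1 and IL18 passed the filter only through the line where they are high. Their calls follow from that, so nothing is read from the counts that include them. Among receptors P2RY1 averaged 11.8 CPM in LN229 and 0.543 CPM in U251. P2RX6 averaged 6.76 CPM in LN229 and 2.94 CPM in U251 (log2 fold change 1.20, edgeR adjusted p = 0.00643). P2RX6 kept its call in 11 of 15 settings and lost it without LN229 mock replicate 1 (0.97), without U251 mock replicate 2 (0.88), without both libraries that stand apart (0.87) and with control siRNA libraries in place of mock (0.43), with edgeR adjusted p of 0.0606 to 0.256. Among ectoenzymes, ENPP2, the secreted lysophospholipase autotaxin, averaged 97.9 CPM in LN229 and 0.176 CPM in U251, and DPP4, the adenosine deaminase binding protein, was higher in LN229 as well, at 11.5 CPM, against 1.52 CPM in U251. BST1 was lower, at 0.207 CPM in LN229 and 6.12 CPM in U251. ENPP1 was lower by a log2 fold change of -0.60 (edgeR adjusted p = 0.0226), at 11.6 CPM in LN229 and 17.7 CPM in U251. ENPP1 kept its call in 9 of 15 settings and lost it with DESeq2 (-0.62, DESeq2 adjusted p = 0.0752), without TMM factors (-0.42) and without LN229 mock replicate 1 (-0.66), LN229 mock replicate 2 (-0.54), U251 mock replicate 1 (-0.58) or U251 mock replicate 2 (-0.63). GJA1, the connexin 43 gene, averaged 41.0 CPM in LN229 and 292 CPM in U251, and CALHM2 averaged 24.8 CPM in LN229 and 1.89 CPM in U251. PANX2 was lower in LN229 by a log2 fold change of -2.03 (edgeR adjusted p = 9.99e-06). Of 11 tested genes of adenosine uptake and metabolism, 6 were lower in LN229 (SLC29A1, SLC29A4, AMPD1, AMPD2, PNP and NT5C2) and 2 higher (SLC29A2 and AHCY). The count of 6 includes AMPD2 (log2 fold change -0.40), which lost its call without a filter (-0.38), without TMM factors (-0.22), without LN229 mock replicate 2 (-0.32) and without U251 mock replicate 1 (-0.38). The muscle AMP deaminase AMPD1 was at 0 in both LN229 mock libraries and averaged 27.3 CPM in U251, and PNP averaged 5.82 CPM in LN229 and 33.7 CPM in U251. Of inflammasome genes, IL18, a cytokine, averaged 0.0633 CPM in LN229 and 81.9 CPM in U251, CASP1 averaged 1.92 and 9.87 CPM, and GSDMD averaged 32.5 and 65.7 CPM, while NEK7 was higher in LN229 at 86.7 CPM against 43.1 CPM in U251.

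NT5E had the largest mean absolute log2 fold change of the 8 members over the 4 XRN2 siRNA comparisons, 1.06. The 5 genes whose level was most like it across the 12 libraries, each line centred on its own mean, were TXNDC5, RGS4, DDAH1, FOSL1 and ETV1, with Pearson r of 0.98, 0.97, 0.97, 0.96 and 0.95 on log2 CPM. The libraries are shared and differ in depth, so these values are a description with no test. The 5 genes were chosen for following NT5E, which was lower with XRN2 siRNA. Their own negative log2 fold changes follow from that choice. RGS4, which shortens G protein signalling, had log2 fold changes of -1.09 in LN229 and -0.71 in U251 with XRN2 siRNA against control siRNA. FOSL1, a subunit of the AP-1 transcription factor, had -0.79 in LN229 and -0.57 in U251, and ETV1, an ETS transcription factor, had -0.69 in LN229 and -1.13 in U251. TXNDC5, a protein disulfide isomerase of the endoplasmic reticulum, had -0.51 in LN229 and -0.29 in U251, and DDAH1, which breaks down methylated arginines, had -1.24 in LN229 and -0.76 in U251.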

How the data were processed

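RNA of 12 libraries was made with the TruSeq RNA v2 kit, per the labels' protocols; this kit is known to select polyadenylated RNA without keeping strand. Per the file headers, the deposited values are whole-number read counts per gene (all and unique exon reads, junction reads, intron reads) beside TPM and RPKM. The deposited TPM was used for levels per length, and deposited RPKM was not used. The aligner, the counter and the handling of multi-mapping reads are not given in the labels or headers. Builds GRCh37 and hg19 appear in the submitters' processing notes; the coordinates are nevertheless those of GRCh38, since 96.8% of identifiers (56000 of 57836) had the same position in GENCODE 29.

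Total exon read counts were tested with edgeR 4.0.16: filterByExpr (minimum count 10, minimum total 15) kept 14232 genes, TMM scaling, 1 mean per group over all 12 libraries, 6 residual degrees of freedom, robust quasi-likelihood F-test, two-sided, Benjamini-Hochberg adjustment over all genes at 0.05. The SE is the log2 fold change over the square root of F. The steps were tested on simulated data. The members, gene lists and named genes were chosen with earlier results of these data known. Named are XRN2, the members, their overlapping genes, other pathway genes called in a comparison, and the 5 genes most like the member with the largest mean absolute log2 fold change, leaving out clone-like names. Alternatives were DESeq2 1.42.0, its size factors, no TMM factors, no filter, 5 CPM in 2 libraries, a replicate block, unique reads, only the compared groups, each library left out, and both libraries that stand apart left out. Intervals and floors cover counting error only.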

Additional observations from a re-analysis of the deposited data

How the results depend on the processing

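The fold changes of P2RX7 in LN229 and of NT5E in both lines kept their sign in all 13 settings. The log2 fold change of P2RX4 between the lines, -0.23, was -0.55 to 0.012 with 1 library left out, reversed without LN229 mock replicate 1, and was not called there either. Counts over all genes moved more, and the cause was not tested.

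The genes called numbered 450 (LN229 against control siRNA), 1 (U251 against control siRNA), 182 (LN229 against mock) and 7 (U251 against mock), in that order. Without a filter they were 1550, 69, 1026 and 502, and with DESeq2 766, 9, 401 and 32. With only the compared groups, 4 genes were called in LN229 and 529 in U251 against control siRNA, and 1 in U251 against mock. Unique exon reads gave 4 in U251 against control siRNA. Without both libraries that stand apart, 22 were called in U251 against control siRNA and 1593 in LN229 against mock. Leaving out 1 library gave 1 to 3309 in LN229 against control siRNA, 1 to 662 in LN229 against mock and 1 to 769 in U251 against mock.

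Of the other pathway genes, 1 was called in LN229 against control siRNA, 1 in LN229 against mock, and 0 in U251 in either. In LN229 against control siRNA the count was 3 without a filter, with DESeq2 and without both libraries that stand apart, 2 with unique exon reads and 0 with only the compared groups. In LN229 against mock it was 6 without a filter and without both libraries that stand apart, 3 with DESeq2 and without TMM factors, and 2 with DESeq2 size factors, 5 CPM in 2 libraries or unique exon reads. In U251 it was 1 against mock without a filter and 2 against control siRNA with only the compared groups. Leaving out 1 library gave 0 to 3 and 0 to 4 in LN229 against control siRNA and mock, and 0 to 1 in U251 against mock.

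The labels number the libraries of each group 1 and 2 but do not say that a number marks a shared culture, and 2 pairs are too few to tell. With a replicate block, 566, 1, 229 and 5 genes were called in the 4 XRN2 siRNA comparisons in the order above, 7727 between the lines, and 2 pathway genes in LN229 against control siRNA. Unique reads left ENTPD1 untested. Depth limits P2RX5 and P2RY2, which did not pass the filter. To a lesser degree it limits P2RX7 in U251, which passed it, with an SE of 0.32 against control siRNA and 0.33 against mock.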
